A study of Mus musculus with 6 samples.

Results

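Messenger RNA levels of 54 genes of the mitotic spindle, the kinetochore and mitotic entry and exit were measured on arrays in 6 thymic lymphomas that arose in mice with little Ikaros. The genes were listed by name, and their array probe sets were found by exact gene symbol. A probe set is a group of short oligonucleotides that together report 1 transcript. Of the 54 genes, 53 had 123 probe sets between them, Ccnb1 was not analysed here, and the array as a whole reported 18193 genes. Where a gene had several probe sets, the one with the highest mean intensity over the tumours stood for it. A filter on dim probe sets left 52 of these genes and 12042 genes in all. The gene removed was Kif15, a spindle kinesin, whose only probe set had intensities of 0.9 to 7.1.

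Each of the 6 tumours came from a different mouse and was hybridised to its own array. All mice were homozygous for the IkL allele, which lowers expression of the lymphoid transcription factor Ikaros, and all carried CD4-Cre, a recombinase transgene driven by CD4 regulatory elements in thymocytes. In 3 of them both Notch1 alleles were wild type (IkL/L Notch1+/+ CD4-Cre+, aged 18 to 20 weeks). In the other 3 both were floxed (IkL/L Notch1f/f CD4-Cre+, aged 8 to 10 weeks), and the labels name a deletion of promoter and exon 1 sequence in their tumours. Age and genotype cannot be told apart in this design. The cells were taken from disrupted tumour tissue without sorting, so each array also read the other cells of the tumour.

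Mitosis separates copied chromosomes by attaching them to spindle microtubules at kinetochores, protein plates built on the centromere. Cyclin-dependent kinase 1 with its A and B cyclins starts the process, Polo-like and Aurora kinases build the spindle, and a checkpoint holds back the anaphase-promoting complex until every kinetochore is attached. Its activator Cdc20 then triggers destruction of securin, which frees separase to cut cohesin. Most of these genes are transcribed in late S phase and G2 through promoters that hold a cell cycle homology region, read by the MuvB complexes, and CCAAT boxes, bound by NF-Y. In thymus and thymic lymphoma their messenger RNA is carried by cycling cells, whose types were not separated here.

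The promoters below are shown because they belong to genes whose tumour groups did not overlap, and they were the 4 with the smallest p-values among those with a RefSeq entry. Each is written 5′ to 3′ on the gene's strand, from 250 bases before the annotated start to 50 bases after it. The letters TTTGAA or TTTAAA (the core of the cell cycle homology region) and CCAAT are in capitals on either strand, so that TTCAAA and ATTGG are their reverse complements. Build GRCm38.p6 applies to all of them, at chr11:43425932-43426231 on the minus strand for Pttg1, chr19:37376132-37376431 on the plus strand for Kif11, chr15:102296043-102296342 on the plus strand for Espl1 and chr9:83834439-83834738 on the plus strand for Ttk.
Pttg1: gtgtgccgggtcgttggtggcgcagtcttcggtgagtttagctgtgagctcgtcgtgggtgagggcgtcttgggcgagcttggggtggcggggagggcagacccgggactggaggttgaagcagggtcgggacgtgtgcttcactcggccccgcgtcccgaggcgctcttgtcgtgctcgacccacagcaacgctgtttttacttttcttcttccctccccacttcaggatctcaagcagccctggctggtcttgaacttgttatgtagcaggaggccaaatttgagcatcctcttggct
Kif11: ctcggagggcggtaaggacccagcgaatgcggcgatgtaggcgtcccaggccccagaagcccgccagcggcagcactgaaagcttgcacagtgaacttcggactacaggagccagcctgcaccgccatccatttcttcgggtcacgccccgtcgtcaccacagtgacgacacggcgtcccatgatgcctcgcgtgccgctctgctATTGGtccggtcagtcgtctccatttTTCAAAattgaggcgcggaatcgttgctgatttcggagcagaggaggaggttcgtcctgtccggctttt
Espl1: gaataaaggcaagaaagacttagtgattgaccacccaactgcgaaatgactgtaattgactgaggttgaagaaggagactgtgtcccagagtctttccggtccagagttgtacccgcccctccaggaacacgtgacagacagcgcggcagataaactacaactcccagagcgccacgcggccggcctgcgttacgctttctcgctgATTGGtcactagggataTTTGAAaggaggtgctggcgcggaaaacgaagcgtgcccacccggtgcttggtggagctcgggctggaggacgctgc
Ttk: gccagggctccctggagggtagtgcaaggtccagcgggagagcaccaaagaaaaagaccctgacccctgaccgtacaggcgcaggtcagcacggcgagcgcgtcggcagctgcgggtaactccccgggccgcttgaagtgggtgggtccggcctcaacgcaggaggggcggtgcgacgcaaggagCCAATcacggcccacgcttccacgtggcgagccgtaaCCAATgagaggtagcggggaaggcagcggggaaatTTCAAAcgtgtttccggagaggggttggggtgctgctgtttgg

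The Kif11 and Espl1 windows each held 1 match to TTTGAA and 1 to CCAAT, and the Ttk window held 1 and 2. In Kif11 the TTTGAA letters began 19 bases before the start and the CCAAT letters 45 bases before it. In Espl1 they began 27 and 44 bases before it. In Ttk the TTTGAA letters lay just past the annotated start, at bases 8 to 13, and the CCAAT letters began 65 and 28 bases before it. None of the marked matches overlapped a match to another motif. The Pttg1 window held none of these letters. RefSeq windows were at hand for 45 of the 54 genes, 50 windows in all. TTTGAA was in 35 of the 50 windows (70%), against 17.9% of all 32851 promoter windows of the same 300 bases. TTTAAA was in 9 (18%, against 13.2%) and CCAAT in 38 (76%, against 37.4%). CCAAT together with TTTGAA or TTTAAA was in 32 (64%, against 10.7%). These are matches of letters, not sites shown to be bound.

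On every array at least 23.1% of all probe sets had an intensity over 100, and all 52 tested genes of the list had a mean intensity over 100. Their means ran from 111 (Kif18a) to 2969 (Smc4), with a median of 425. T cell markers were bright on every array, and the intensities of 9 of them summed to between 14864 and 18057 with wild-type Notch1 and to between 18174 and 24283 with floxed Notch1. A pair of tumours stood apart in ways that touch the values below. For 57.7% of the 52 genes Notch1f/f tumour 2 was the member of its group with the highest level, against 35.2% of all tested genes. Notch1+/+ tumour 1 had a ratio of 2.23 between the 3′ and 5′ control probe sets of beta-actin, against 1.35 to 1.64 on the other arrays. For the Gapdh controls this array stood apart much less, with a ratio of 1.08 against 0.77 to 1.03 on the others. The larger such a ratio, the less of the 5′ part of the transcript was labelled.

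The comparison asks how lymphomas that arose with floxed Notch1 differ in mitotic gene expression from those with wild-type Notch1. Most of the genes were lower in the Notch1f/f tumours by modest amounts. Espl1, Ttk and Kif11 were among the furthest down, at 53.3% to 58.8% of their Notch1+/+ means. Pttg1, the securin gene, went the other way and was 244% of its Notch1+/+ mean. Of the 52 tested genes, 46 had a log2 difference below 0 and 6 above. The differences ran from -0.85 to 1.25 with a median of -0.32, and the quartiles were -0.57 and -0.18. Over all 12042 tested genes, 51.6% of differences were below 0 and the median was -0.01. Differences are Notch1f/f minus Notch1+/+ on the scale of log2(intensity + 16), given with their standard error, which understates the change of dim genes.

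No gene of the list passed an adjusted p of 0.05 in limma, where 5 of 27022 probe sets did (0.0185%, or 0.0415% of genes by their brightest probe set). The smallest adjusted p among the 52 was 0.197, for Pttg1. At an unadjusted p under 0.05, 16 were lower and 1 was higher in the Notch1f/f tumours, against 6.21% and 6.97% of all tested genes. The intensities of the groups did not overlap for 21 genes, of which 19 were lower and 2 higher, against 9.14% and 9.21% of all tested genes. With each array centred on its median, 15 were lower and 2 higher, against 5.66% and 12.3% of all genes, and 45 of 52 stayed below 0. In bulk tissue, fewer dividing cells and less RNA per cell cannot be told apart.

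**Figure D1:**
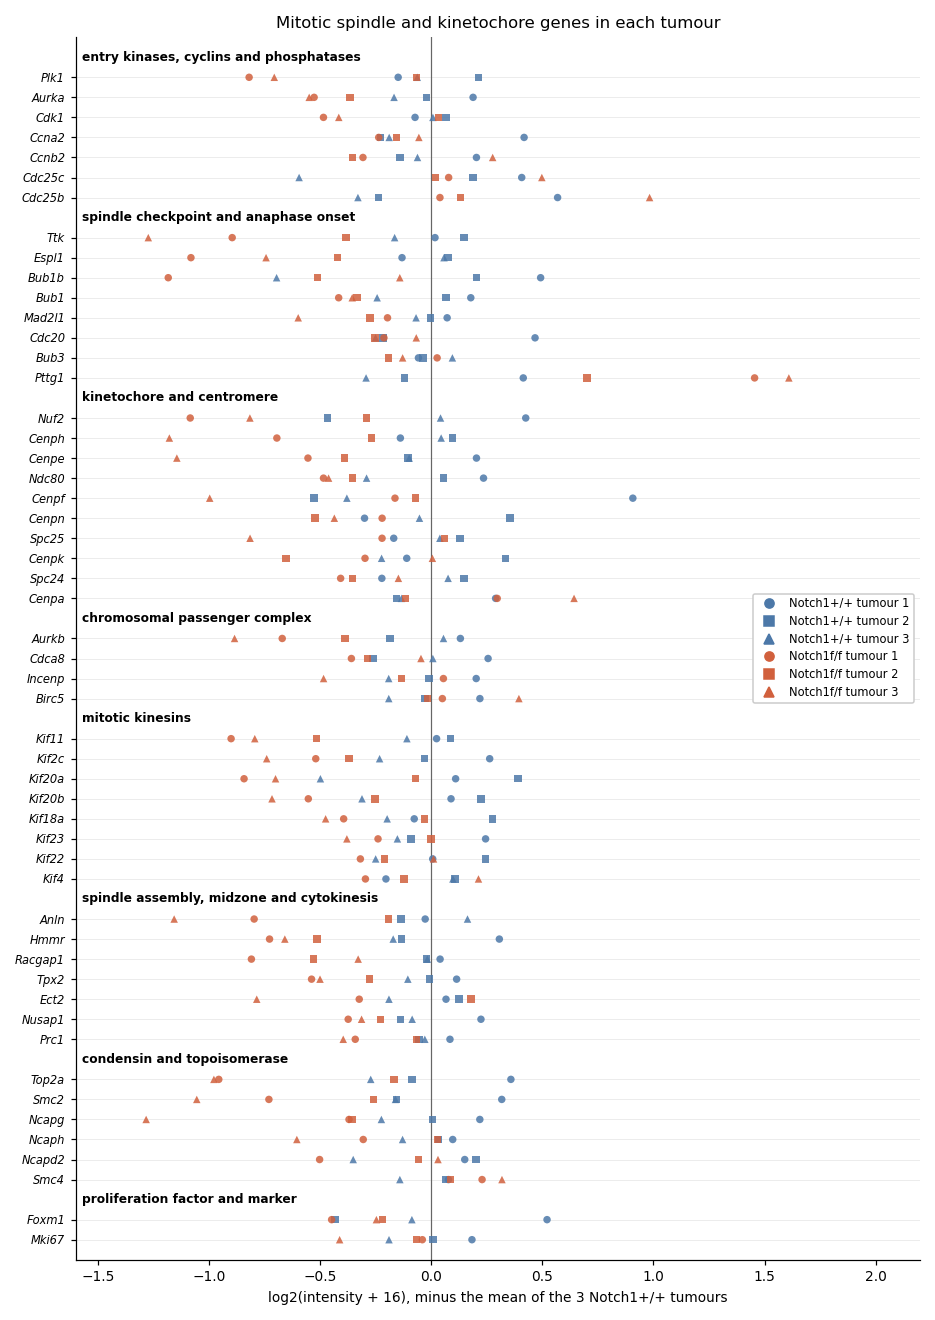
Level of each of the 52 tested genes in each tumour, as log2(intensity + 16) minus the mean of the 3 Notch1+/+ tumours, grouped by role and ordered by difference. Blue marks are Notch1+/+ and orange marks Notch1f/f tumours. Orange circles and triangles (tumours 1 and 3) lie left of the blue marks for most genes, orange squares (tumour 2) lie closer to them, and Pttg1 alone has all its orange marks more than 0.5 to the right.

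The kinases, cyclins and phosphatases of mitotic entry were lower for 5 of 7 genes, with a median of -0.15. Aurka, the spindle pole kinase Aurora A, had intensities of 545, 469 and 422 in Notch1+/+ tumours 1, 2 and 3 and of 326, 366 and 320.3 in Notch1f/f tumours 1, 2 and 3. Its groups did not overlap, and the log2 difference was -0.48 ± 0.20 (limma adjusted p = 0.343, exact two-sided permutation p = 0.1, the smallest that 3 against 3 allows). Plk1, the Polo-like kinase, had 372, 482 and 396 against 228, 395 and 248. Only Notch1f/f tumour 2 reached the Notch1+/+ range, and the difference was -0.53 ± 0.25 (limma adjusted p = 0.388, exact p = 0.2). Cdk1, the kinase that drives entry, showed the same placement at 786.5, 867.5 and 832.5 against 587, 848 and 617 (-0.29 ± 0.20, limma adjusted p = 0.532, exact p = 0.3).

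The cyclins of this group had differences nearer 0. Ccnb2, a B-type cyclin, had 1203, 944 and 998 against 839.6, 812.5 and 1266, so that Notch1f/f tumour 3 held the highest value. Ccna2, the A-type cyclin, had 1336, 848 and 871 against 843, 892 and 957.5 on its brighter probe set. That difference of -0.15 turned to 0.06 without Notch1+/+ tumour 1. Its other probe set did not overlap, at 819, 858 and 928 against 468, 813 and 476 (-0.60 ± 0.24). Cdc25b and Cdc25c, the phosphatases of this group that switch Cdk1 on, were above 0 on their brightest probe sets. Cdc25a, from the list of other mitotic genes described below, was below 0 with overlap (-0.56 ± 0.30). Cdc25b had 464, 258.5 and 242 against 317, 339 and 624, a difference of 0.38 ± 0.33 with a 95% interval from -0.36 to 1.12. Cdc25c had 140, 118 and 61.9 against 108, 103 and 150.1 (0.20 ± 0.31), but -0.10 without Notch1+/+ tumour 3 and -0.05 on its other probe set.

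The genes of the spindle checkpoint and of anaphase onset were lower for 7 of 8, with a median of -0.36, and held both extremes of the list. Ttk, the checkpoint kinase Mps1, had 184, 203 and 161 in the Notch1+/+ tumours and 90.4, 136 and 65.9 in the Notch1f/f tumours. Its groups did not overlap and the difference of -0.85 ± 0.28 was the lowest of the 52 (limma adjusted p = 0.295). Espl1, the protease separase, had 363, 421 and 416 against 180.2, 294 and 232. All 3 Notch1f/f tumours lay below all Notch1+/+ tumours (-0.75 ± 0.23, limma adjusted p = 0.290). Bub1, a checkpoint kinase at the kinetochore, had 729, 673.5 and 540.4 against 477.5, 506.5 and 499. Mad2l1, the checkpoint protein Mad2, had 1562, 1483 and 1417 against 1294.5, 1225 and 976. Neither overlapped, with differences of -0.37 ± 0.19 and -0.36 ± 0.17. Dimmer second probe sets of Ttk and Bub1 overlapped. That of Ttk had 26.7, 35.2 and 36.1 against 25.5, 36 and 10.5 (-0.33 ± 0.28), and that of Bub1 was near 0 (-0.07 ± 0.22).

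Pttg1 encodes securin, the inhibitor of separase, and was the gene that stood highest in the Notch1f/f tumours. Its intensities were 1345, 924 and 817.5 in the Notch1+/+ tumours and 2784.5, 1644 and 3100.3 in the Notch1f/f tumours. The groups did not overlap, and Notch1f/f tumour 2 was again the closest to the Notch1+/+ tumours. The difference was 1.25 ± 0.27, or 2.39-fold, with a 95% interval from 0.64 to 1.87 (limma unadjusted p = 0.00120, adjusted p = 0.197). A dimmer probe set gave 208, 192 and 118 against 469, 329 and 582 (1.34 ± 0.29). The dimmest gave 68.2, 22.0 and 22.2 against 52.7, 37.8 and 37.7, and its groups overlapped (0.23 ± 0.34). The brightest probe set is of the type marked s_at, which can detect more than 1 transcript. Pttg1 had an adjusted p of 0.0657 without Notch1f/f tumour 2, of 0.0695 with array weights, and of up to 0.552 when another tumour was left out. Securin and separase transcripts thus differed in opposite directions in the same tumours, without either passing the adjusted threshold.

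The remaining checkpoint genes overlapped. Cdc20, the activator of the anaphase-promoting complex, had 3057.5, 1898 and 1853 against 1902, 1849 and 2106. Its difference of -0.18 turned to 0.06 without Notch1+/+ tumour 1, while its dimmer probe sets gave -0.34 and -0.37 with no overlap. Bub1b, the checkpoint protein BubR1, spread widely within each group, at 1188.5, 970.4 and 513 against 361, 584 and 760.3 (-0.61 ± 0.35). Bub3, which carries Bub1 to kinetochores, was the least different, at 1832, 1859 and 2039 against 1943, 1669 and 1743 (-0.10 ± 0.15). Its difference was 0.080 when its 5 probe sets were averaged.

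**Figure D2:**
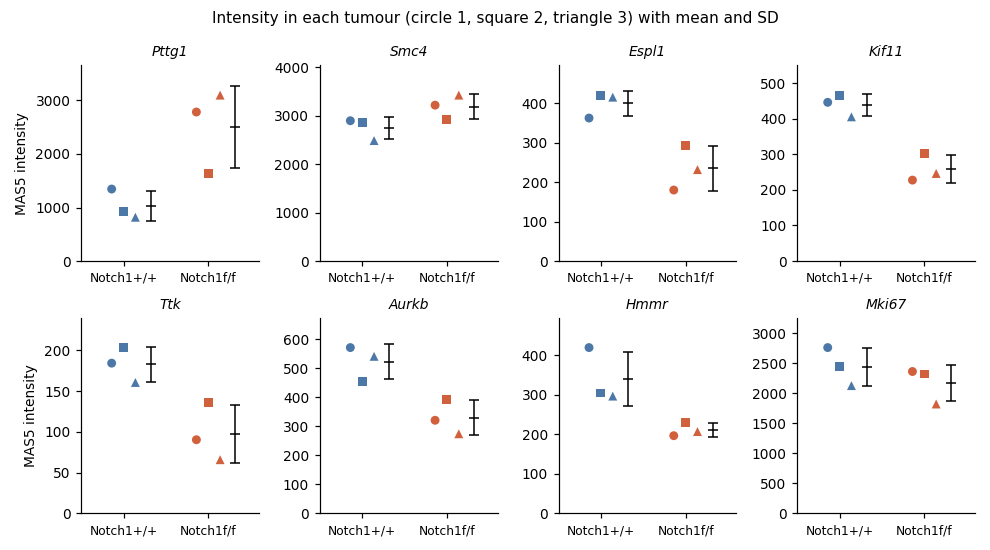
MAS5 intensity of 8 genes in each tumour, on linear axes from 0, with the mean and SD of each group of 3 in black. Circles, squares and triangles are tumours 1, 2 and 3. Pttg1 and Smc4 are higher in all 3 Notch1f/f tumours, Espl1, Kif11, Ttk, Aurkb and Hmmr are lower in all 3, and the groups overlap for Mki67.

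Kinetochore and centromere genes were lower for 9 of 10, with a median of -0.40. The groups did not overlap for 3 of them, against 9.14% of all tested genes lower with no overlap. Cenph, of the inner kinetochore, had 161, 192 and 185 against 104, 146 and 70.1 (-0.71 ± 0.28, limma adjusted p = 0.325). Cenpe, the kinetochore motor that moves chromosomes to the spindle equator, had 425.5, 341 and 342 against 245, 277 and 157 (-0.70 ± 0.25, limma adjusted p = 0.305). Its dim second probe set went the other way, at 27.2, 20.4 and 16.9 against 48.8, 37.6 and 28.5. Ndc80, the microtubule-binding subunit after which the NDC80 complex is named, had 262, 229.9 and 177 against 153, 169 and 156 (-0.43 ± 0.23). Nuf2, its partner, had 369.6, 192 and 279.6 against 119, 219 and 147, and its groups overlapped through Notch1+/+ tumour 2 and Notch1f/f tumour 2 (-0.73 ± 0.30). The 2 other subunits of that complex, Spc24 and Spc25, had differences of -0.30 ± 0.21 and -0.33 ± 0.25. All 4 subunits were therefore below 0, and only Ndc80 separated the groups.

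Cenpa, the histone H3 variant that marks the centromere, was above 0, at 921, 672.5 and 683 against 926, 691 and 1181 (0.27 ± 0.24). Notch1f/f tumour 3 held the highest value, and the second Cenpa probe set gave -0.43 ± 0.52. Cenpf, a large outer kinetochore protein, rested on 1 tumour, with 1188, 429 and 477 against 557, 595 and 306. Its difference of -0.41 ± 0.40 became 0.04 without Notch1+/+ tumour 1. Cenpk, of the inner kinetochore, depended on the probe set. Its brightest gave 327, 451 and 301.5 against 285.5, 219.7 and 356, with overlap (-0.32 ± 0.25). A dim one gave 77.7, 94.9 and 63.5 against 4.0, 22.8 and 21.2, a difference of -1.61 ± 0.31 with the smallest adjusted p of all 114 tested probe sets of the list (0.149 in limma).

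The chromosomal passenger complex corrects faulty attachments and later marks the cleavage plane. Aurkb, its kinase Aurora B, had 572, 456 and 542 in the Notch1+/+ tumours and 321, 394 and 275 in the Notch1f/f tumours. The groups did not overlap (-0.65 ± 0.21, limma adjusted p = 0.295, exact p = 0.1), nor did they on its second probe set (-0.51 ± 0.19). The 3 non-catalytic subunits overlapped on their brightest probe sets. Cdca8, or borealin, had 1407, 977.5 and 1182 against 913, 961 and 1138, and the scaffold Incenp had 2332, 2009.8 and 1771 against 2103, 1845 and 1442. Birc5, or survivin, was above 0, at 1540, 1296 and 1155 against 1368, 1306 and 1741 (0.14 ± 0.19, 95% interval from -0.28 to 0.56). Of the dimmer probe sets of Cdca8 and Incenp, some separated the groups and others did not. A Cdca8 probe set gave 452.7, 395.5 and 363.4 against 255, 331.9 and 348.3 (-0.36 ± 0.21), and an Incenp probe set gave 94.5, 112.4 and 116.5 against 43.9, 68.1 and 27.4 (-1.03 ± 0.29). The other tested ones overlapped, at -0.17 ± 0.18 for Cdca8 and at -0.11 ± 0.21 and 0.09 ± 0.28 for Incenp. Those at -0.17 and -0.11 were brighter than the ones that separated.

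The mitotic kinesins, motors that slide, move or depolymerise microtubules, were below 0 for all 8 tested, with a median of -0.40. Kif11, the Eg5 motor that pushes spindle poles apart, had 447, 467 and 406 against 228, 302 and 246.5. The groups did not overlap, and its unadjusted p was the second smallest after that of Pttg1 (-0.74 ± 0.20, limma adjusted p = 0.263, exact p = 0.1). Its other probe sets gave -0.64 ± 0.30 and -1.35 ± 0.31. Kif2c, the depolymerase MCAK of the centromere, had 445, 360 and 311 against 252, 281 and 214 (-0.54 ± 0.22). A dimmer probe set gave 75.5, 112 and 133.8 against 24.6, 50.1 and 28.4 (-1.29 ± 0.30). For Kif20a and Kif20b, which act in cytokinesis, only Notch1f/f tumour 2 reached the Notch1+/+ range. Kif20a had 265, 325.5 and 168.5 against 129, 232 and 144 (-0.54 ± 0.31), and Kif20b had 297, 328 and 221 against 185, 231 and 163 (-0.51 ± 0.24).

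The other kinesins lay closer to 0. Kif18a, which damps chromosome oscillations, Kif22, which pushes on chromosome arms, and Kif23, of the central spindle, had differences of -0.30 ± 0.25, -0.17 ± 0.20 and -0.21 ± 0.21. Kif4, a chromosome-bound kinesin, had 132.5, 168 and 167 against 123, 141 and 182 (-0.07 ± 0.24). Its sign was not stable, at 0.044 without Notch1f/f tumour 1 and 0.017 with arrays centred on their medians.

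Genes of spindle assembly, the midzone and cytokinesis were all below 0, with a median of -0.44. The groups did not overlap for 6 of the 7, against 9.14% of all tested genes lower with no overlap. This was the largest share of any role, though some of these gaps were narrow. Hmmr, a spindle pole protein also known as RHAMM, had 420, 305 and 297 against 197, 231 and 207 (-0.63 ± 0.22, limma adjusted p = 0.297). Its dimmer probe sets gave -0.46 ± 0.23, -0.99 ± 0.28 and -0.58 ± 0.23 without overlap, and -0.19 ± 0.24 with overlap on the dimmest. Racgap1, which with Kif23 forms the centralspindlin complex, had 663, 635 and 637 against 361, 441.5 and 510.1 (-0.56 ± 0.19, limma adjusted p = 0.299). On that probe set the Notch1+/+ values of Racgap1 lay close together, well above the highest Notch1f/f value. A second Racgap1 probe set, nearly as bright, gave 628.2, 575.1 and 561.7 against 452.6, 440.3 and 558.9 (-0.28 ± 0.19). There the highest Notch1f/f value lay barely under the lowest Notch1+/+ value. Anln, the actin-binding anillin of the contractile ring, had 328, 303.5 and 377 against 186, 291 and 141 (-0.72 ± 0.27), with Notch1f/f tumour 2 only just below the lowest Notch1+/+ tumour.

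Tpx2, which activates Aurora A on the spindle, had 601, 551 and 514 against 376.5, 455 and 387 (-0.44 ± 0.19). Nusap1 bundles spindle microtubules, and Prc1 crosslinks those of the midzone. Nusap1 had 1438, 1116 and 1157.5 against 945, 1048 and 986 (-0.31 ± 0.17), and Prc1 had 371, 335 and 342 against 272, 333 and 261 (-0.27 ± 0.20). For Prc1 the highest Notch1f/f value, 332.6, lay barely under the lowest Notch1+/+ value, 335.4. Ect2, the exchange factor that turns on RhoA for cytokinesis, was the exception in overlap, at 485, 505 and 403 against 366, 525 and 261 (-0.31 ± 0.26). Its Notch1f/f tumour 2 had the highest value of all 6 tumours.

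Condensin and topoisomerase genes shape mitotic chromosomes, and their members split. Smc2, a core ATPase of condensin, had 1464, 1050.0 and 1046 in the Notch1+/+ tumours and 699.7, 976 and 555.5 in the Notch1f/f tumours (-0.68 ± 0.24, limma adjusted p = 0.303). Smc4, its obligate partner, was higher without overlap, at 2897, 2869.6 and 2487 against 3219, 2914 and 3426 (0.21 ± 0.14, limma adjusted p = 0.530). A second Smc4 probe set gave 836, 936 and 865 against 1523, 1493 and 1229 (0.67 ± 0.17), and the third gave 596, 771.5 and 749.9 against 638, 746 and 416 (-0.26 ± 0.24). The probe sets of Smc4 therefore did not share a direction, while the 5 tested for Smc2 were all below 0. Whether the transcripts that they read differ was not looked up.

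Top2a, the topoisomerase that untangles sister chromatids, was the brightest gene that was lower, at 4328, 3176.5 and 2789 against 1730.3, 3002 and 1704 (-0.70 ± 0.25, limma adjusted p = 0.304). Notch1f/f tumour 2 lay inside the Notch1+/+ range, and tumours 1 and 3 lay well under it. Ncapg, a condensin subunit, had 465, 399 and 338 against 304, 307 and 154 (-0.67 ± 0.29) with no overlap. The subunits Ncaph and Ncapd2 overlapped on their brightest probe sets (-0.29 ± 0.21 and -0.18 ± 0.22). On dimmer ones their groups separated, at -0.57 ± 0.21 and -0.84 ± 0.23.

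The general markers of proliferation did not separate the groups. Mki67, the Ki-67 antigen of cycling cells, had 2764, 2445 and 2130.3 against 2365, 2323 and 1824. The difference was -0.17 ± 0.17 with a 95% interval from -0.56 to 0.21 (limma adjusted p = 0.672, exact p = 0.4). Foxm1, the transcription factor of G2 and M phase genes, had 329, 162 and 210.2 against 160.1, 190.3 and 186.5 (-0.31 ± 0.27, exact p = 0.4). For Foxm1, Notch1+/+ tumour 1 stood far above the other 5 tumours. These intervals leave room for a difference as large as the median of the list. The exact test was run for 7 genes, and none could go below 0.1.

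**Figure D3:**
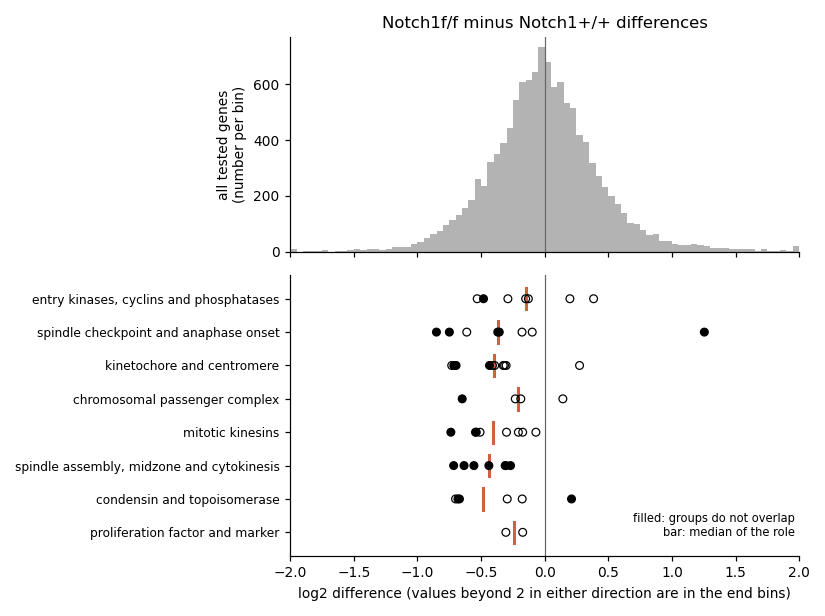
Log2 differences, Notch1f/f minus Notch1+/+. The upper panel counts all 12042 tested genes per bin, and the lower panel shows the 52 genes by role, filled where the groups do not overlap, with the median of each role as a bar. The medians of all 8 roles lie below 0, from -0.15 to -0.48, and Pttg1 is the point at 1.25.

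Dimmer probe sets gave much the same picture as the brightest ones. Of 114 tested probe sets, 99 had a difference below 0, against 55% of all 27022. None passed an adjusted p of 0.05 in limma, and 35 were lower and 4 higher at an unadjusted p under 0.05, against 7.6% and 5.94% of all probe sets. The groups did not overlap for 46 lower and 7 higher probe sets, against 10.4% and 8.13%. A total of 35 genes had more than 1 tested probe set, and in 29 of them every probe set had the same sign (82.9%, against 57.2% of 5816 such genes on the array). The 6 that disagreed were Cdc25c, Bub3, Cenpa, Cenpe, Incenp and Smc4. Incenp ranged from -1.03 ± 0.29 to 0.09 ± 0.28 and Bub3 from -0.46 ± 0.23 to 0.56 ± 0.24. The probe sets of 1 gene share its RNA and are not independent. Some brightest probe sets were of types that can read several transcripts, 5 of s_at and 7 of x_at type. With both types left out, 46 of 51 genes were below 0 with a median of -0.39.

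**Figure D4:**
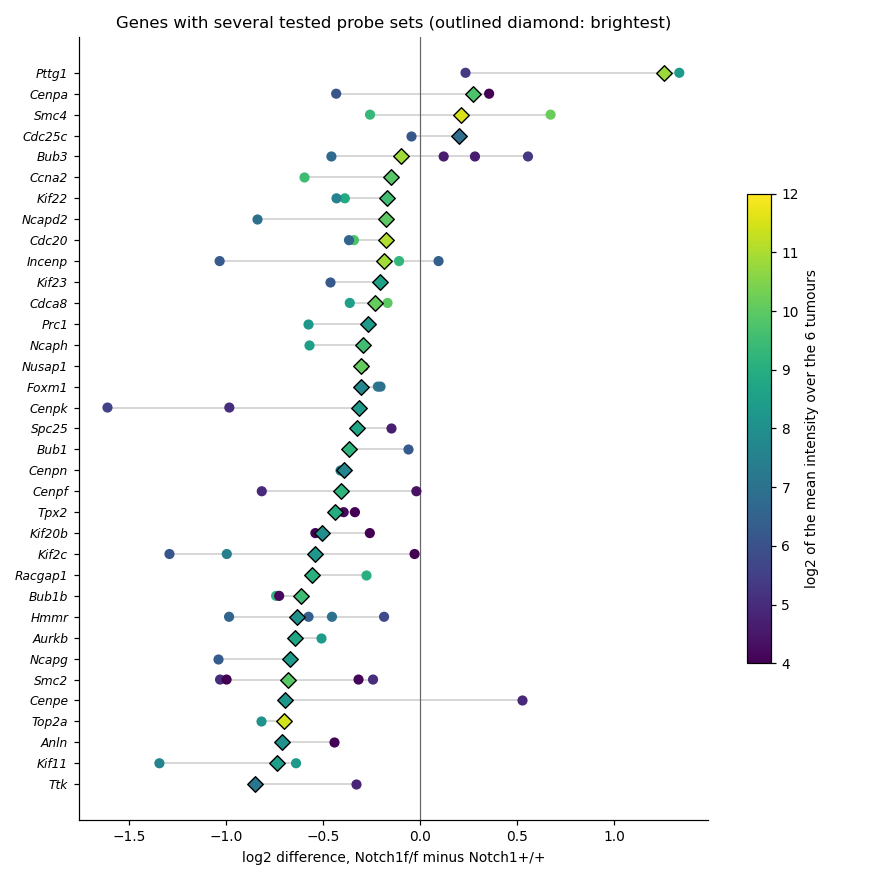
Log2 differences of every tested probe set for the 35 genes with more than 1, ordered by the brightest probe set (outlined diamond), with colour giving the log2 of the mean intensity over the 6 tumours. Most marks lie left of 0, the lowest is a dim Cenpk probe set at -1.61, and a pair of Pttg1 probe sets lies beyond 1.2.

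Averaged over the 52 genes, the log2 level was 9.33, 9.17 and 9.02 in Notch1+/+ tumours 1, 2 and 3 and 8.78, 8.97 and 8.79 in Notch1f/f tumours 1, 2 and 3. The groups did not overlap, although Notch1f/f tumour 2 and Notch1+/+ tumour 3 lay close together. The group means were 9.17 ± 0.15 (SD, n = 3) and 8.85 ± 0.11. Over all tested genes, the same averages lay between 7.09 and 7.12. Notch1f/f tumour 1 was below all Notch1+/+ tumours for 40 of the 52 genes, tumour 3 for 35 and tumour 2 for 26. Over all tested genes these shares were 31.9%, 31.1% and 21.6%. Notch1f/f tumour 2 was the highest of its group for 30 genes (57.7%, against 35.2% of all tested genes). Notch1+/+ tumour 1 was the highest of its own group for 33 (63.5%, against 39.9%).

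The result was recomputed without each of these tumours. Without Notch1f/f tumour 2, 30 genes were lower with no overlap, against 19.4% of all tested genes under the same omission, and the median difference was -0.44. Without Notch1+/+ tumour 1, 22 were lower and 5 higher with no overlap, against 17.0% and 17.8%, and the median was -0.32 with 43 of 52 below 0. The number lower at an unadjusted p under 0.05 was 16 with all tumours, against 6.21% of all tested genes, and 21 without Notch1f/f tumour 2. It was 6 without Notch1f/f tumour 1 or 3. Without Notch1+/+ tumour 1, 2 or 3 it was 7, 10 and 15. The shares of all tested genes at this threshold are not given here for the omissions. These counts therefore cannot be compared between omissions.

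**Figure D5:**
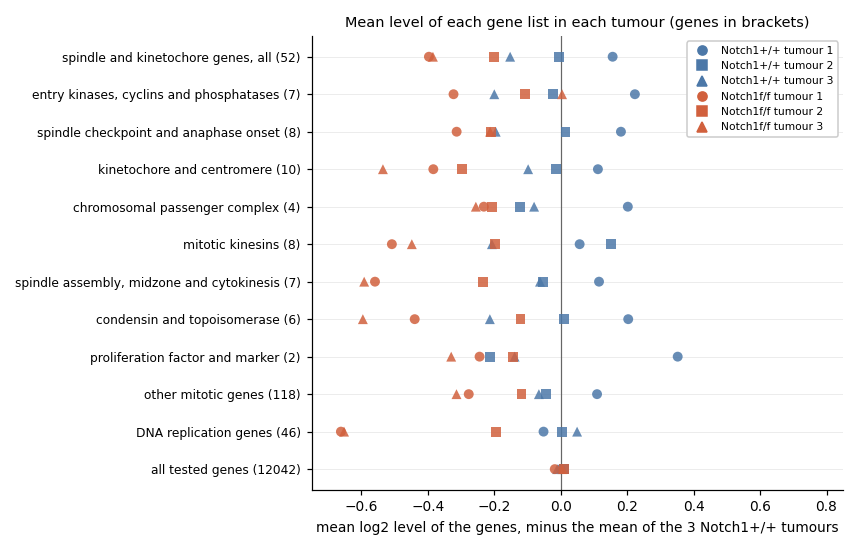
Mean log2 level of each gene list in each tumour, minus the mean of the 3 Notch1+/+ tumours, for the spindle and kinetochore genes, their roles, the other mitotic genes, the DNA replication genes and all tested genes. Orange circles and triangles lie left of the blue marks for most lists, though not for the entry genes, orange squares lie closer to the blue marks, and all tumours coincide for all tested genes.

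Other cell cycle genes were read from lists chosen with earlier results of these data known. Of 118 other mitotic genes, 90 were below 0 with a median of -0.25, and none passed limma. At an unadjusted p under 0.05, 19 were lower and 2 higher, against 6.21% and 6.97% of all tested genes. With no overlap, 24 were lower and 6 higher, against 9.14% and 9.21%, so that the counts of higher genes lay under the shares of all genes. Bora, the cofactor through which Aurora A activates Plk1, had 307, 393 and 358 against 176, 150.4 and 117 (-1.18 ± 0.23, limma adjusted p = 0.152). Haus4, of the microtubule-nucleating augmin complex, the mitotic kinase Pbk and the cohesin regulator Pds5b were lower by -0.90 ± 0.20, -0.84 ± 0.22 and -1.13 ± 0.30. Ppp2r5c, a regulatory subunit of protein phosphatase 2A, was higher (1.02 ± 0.30).

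All 46 DNA replication genes were below 0, with a median of -0.45, and none passed limma. At an unadjusted p under 0.05, 18 were lower, against 6.21% of all tested genes, and 21 were lower with no overlap, against 9.14%. Cdc6, which loads the replicative helicase, had 708, 665 and 597 against 241, 424.5 and 236 (-1.14 ± 0.25, limma adjusted p = 0.202). The other 4 with the smallest p-values were Tyms, Cdc7, Mcm3 and Pole, at -0.99 ± 0.23, -0.97 ± 0.28, -0.83 ± 0.25 and -0.75 ± 0.22. The median of the spindle and kinetochore genes lay nearer 0 than that of the replication genes, a difference that was not tested.

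Among 26 regulators upstream of mitosis, 19 were below 0 and none passed limma, with 5 lower and 3 higher at an unadjusted p under 0.05, against 6.21% and 6.97% of all tested genes. Cdkn1b, the Cdk inhibitor p27, was higher in all 3 Notch1f/f tumours, at 338, 296 and 425 against 1307, 757 and 1153 (1.54 ± 0.25, limma adjusted p = 0.0981). Ccnd1, cyclin D1, was lower in all 3, at 118, 393 and 96.8 against 24.8, 15.1 and 32.4 (-2.22 ± 0.46, limma adjusted p = 0.183). The inhibitors Cdkn2b and Cdkn2a were dim. Cdkn2b had 21.6, 16.5 and 17.3 against 2.7, 7.3 and 3.7 (-0.75 ± 0.18), and Cdkn2a had 59, 27.7 and 26.8 against 6.6, 24.1 and 10.4 (-0.85 ± 0.31). The pocket protein Rbl1 overlapped through Notch1f/f tumour 2, at 639.8, 529.1 and 679.6 against 294.9, 534.5 and 133.4 (-1.09 ± 0.41). Ccnd3, the D-type cyclin of thymocytes, spread from 932 to 2261 within the Notch1f/f group (-0.18 ± 0.29).

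Other cell types and control signals also differed between the groups. Of 8 macrophage markers, 7 had a difference above 0. Their intensities summed to between 246 and 893 with wild-type Notch1 and to between 1431 and 2829 with floxed Notch1. Summed B cell markers were 81.8 to 89.5 against 132 to 319, with all 5 tested markers above 0, and 8 of the 9 T cell markers were above 0. The B cell markers were dim, and Cd79a had 7.3, 6.7 and 9.8 against 15, 12.1 and 121.4. All 6 tested fibroblast markers were below 0. Their list summed to 1401 to 2552 against 868 to 1951, which overlap, but most of this was the signal of Pdgfrb. The other 6 fibroblast markers summed to 229, 1270 and 297 in the Notch1+/+ tumours and to 55.3, 105 and 124 in the Notch1f/f tumours, with no overlap. Col1a2, a collagen gene, had 190.1, 977.6 and 53.3 against 13.2, 39.8 and 71.3. Neutrophil markers summed to 198 to 340 against 121 to 199, and without the brightest, S100a8, to 129 to 194 against 68.5 to 109, with no overlap. Without their brightest marker, the T cell sums overlapped and the macrophage and B cell sums did not. These sums without the brightest marker were computed after seeing the data. Defining markers were under 20 on every array for 5 of 6 endothelial genes (Cdh5, Kdr, Tek, Vwf, Emcn), 5 of 7 thymic epithelial genes and 5 of 6 dendritic cell genes. The part of these cells in the differences of the mitotic genes was not tested. The 3′ control probe set for 18S ribosomal RNA was 97.8 ± 30.5 (SD, n = 3) against 285 ± 34.7. The 3′ control for the transferrin receptor was 193 ± 72.8 against 60.8 ± 30.5, and its 5′ and middle probe sets were lower with no overlap too. The part of these signals was not tested either. The beta-actin ratio of 3′ to 5′ signal overlapped between the groups, at 1.36 to 2.23 and 1.35 to 1.64.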

How the data were processed

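Total RNA of 6 tumours, 3 per group, was labelled with biotin and hybridised to Affymetrix mouse arrays, per the labels' protocols. The authors deposited 1 intensity for each probe set and array, computed with MAS5 per the submitters' processing notes. The version is not given in the sources used here. In the deposited table the mean of each array, with 2% trimmed at each end, was 100, so arrays had been scaled to a common target. Detection calls were not used here.

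Of 45101 probe sets, 64 controls were left out. Symbols came from the array's annotation table, and all 123 probe sets of the 54 genes matched the same symbol in a RefSeq gene table through their Entrez identifier. A pseudocount of 16 was added to each intensity before taking log2, and probe sets under the 40th percentile of mean log2 value (4.56, an intensity of 7.60) were left out, leaving 27022. A linear model per probe set was fitted with limma 3.58.1 (R 4.3.3), using lmFit followed by eBayes with a mean-variance trend; tests were two-sided, with Benjamini-Hochberg adjustment over all 27022 probe sets and no covariate, since the labels name no batch. The number of arrays limits the precision. The fit was tested on simulated data. Exact permutation tests used scipy 1.17.1, and figures matplotlib 3.10.9.

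The genes, lists and tests were chosen with earlier results of these data known. Genes named in full were, per role, those with the smallest and largest p-values, every gene above 0, genes whose probe sets differ in sign, and a fixed set (Mki67, Foxm1, Aurka, Aurkb, Plk1, Cdk1, Cdc20, Kif11); further members are described for their role. Up to 5 genes of each other list with the smallest p-values were named, plus Cdc25a, Cdkn1b and Ccnd3. Promoter windows were RefSeq's (GRCm38.p6). Alternatives were other pseudocounts, filters, scalings, variance settings and probe set choices, and each tumour left out.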

Additional observations from a re-analysis of the deposited data

Results flagged for a closer look

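Array controls against 18S ribosomal RNA, which enter no comparison of genes, were higher on all 3 Notch1f/f arrays than on any Notch1+/+ array. The 3′ probe set had a mean intensity of 285 in the Notch1f/f tumours against 97.8 in the Notch1+/+ tumours. The 5′ probe set had 217 against 59.1, and the middle probe set 247 against 95.1. Groups of 3 tumours are too small for a check of single outlying tumours.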

How the results depend on the processing

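No gene of the list passed an adjusted p of 0.05 in limma under any of the 17 alternatives run, and its median difference stayed below 0 in all of them, at -0.29 with a pseudocount of 64, -0.34 with a pseudocount of 1, -0.23 with median centring and from -0.44 to -0.32 with a tumour left out. Between 43 and 47 genes were below 0 with a tumour left out, and 45 or 46 otherwise. Genes lower with no overlap numbered 21 to 30 with a tumour left out, against 11.6% to 19.4% of all genes, and 15 with median centring, against 5.66%. Genes higher with no overlap numbered 2 to 5 with a tumour left out, against 12.4% to 17.8%, and 1 with quantile normalisation, against 10.1%. Leaving out a tumour thus raised the share for all genes as well, from 9.14% lower and 9.21% higher. With probe sets of a gene averaged, 28 were lower and 1 higher, and the share of all genes is not given here. Leaving out the s_at and x_at probe sets was chosen after seeing the data.

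Over all probe sets, 5 passed an adjusted p of 0.05, 2 to 14 with a tumour left out, 3 with no filter, 15 with median centring and 27 with array weights. Signs turned for 8 genes, 2 of which, Cenpe and Cenpf, had differences well away from 0 with all tumours and their brightest probe set (-0.70 and -0.41). Kif4 was 0.017 with median centring, and Bub3 was 0.080 with the mean of probe sets. With a tumour left out, Kif4 ranged from -0.21 to 0.044 (highest without Notch1f/f tumour 1), and, highest without Notch1+/+ tumour 1, Ccna2 ranged from -0.26 to 0.059, Cdc20 from -0.30 to 0.055 and Cenpf from -0.67 to 0.043. Cdc25c ranged from -0.10 (without Notch1+/+ tumour 3) to 0.40 and was -0.046 with the second brightest probe set or without s_at and x_at probe sets. With the second brightest probe set, Cenpa was -0.43 and Cenpe 0.53. The cause of these turns was not tested. Each rests on 3 arrays per group, or on fewer in the group from which a tumour was left out.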
